A study of Homo sapiens with 6 samples.

Results

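Deoxynucleotide supply enzymes are 9 proteins that make, salvage or break down the building blocks of DNA, and their transcripts were followed in the ovarian cancer cell line HEY, of human origin and long established. The members TYMS, RRM1, RRM2, TK1, DUT, DTYMK, DCK, CAD and SAMHD1 were taken by gene name from the deposited tables, where each name occurs in 1 row, and are 9 of 60835 distinct gene names. They were chosen by function while the differences between the groups in these data were known, so those differences are given below as a description and not as independent evidence. Total RNA was sequenced from 3 libraries labelled siNC and 3 labelled siCCNL2, the second carrying an siRNA against CCNL2, which encodes cyclin L2. The treatment text, 48 h with CCNL2 siRNA, is identical for both groups, so the grouping comes from the sample titles, and neither siRNA sequence was given in the sources used here. The series title places the comparison in a study of 5-methylcytosine, CCNL2, cisplatin resistance and ferroptosis. All 6 libraries come from the same cell line without another allele or agent in the labels, and nothing says whether libraries of 1 group came from separate cultures, so the standard errors measure only the spread between these libraries.

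DNA synthesis needs deoxynucleoside triphosphates (dNTPs), which cells make by 2 routes. In the de novo route CAD starts the pyrimidine ring, ribonucleotide reductase (a large subunit encoded by RRM1 and a small subunit encoded by RRM2) turns ribonucleotides into deoxyribonucleotides, and thymidylate synthase (TYMS) makes the thymidine nucleotide from the uridine form that DUT supplies and keeps out of DNA. DTYMK then phosphorylates the product. In the salvage route TK1 and DCK phosphorylate deoxynucleosides taken up from outside, and SAMHD1 works against both routes by cleaving dNTPs. Several of these genes are known to be transcribed mainly around S phase, the part of the cell cycle in which DNA is copied, under E2F and NF-Y transcription factors.

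The RefSeq promoter windows of the members (GRCh38.p14, 250 bases before to 50 bases after a start) were searched on both strands. The search covered E2F motifs (TTTCCCGC, TTTGGCGC, TTTCGCGC or TTTGCCGC), the NF-Y motif CCAAT, the MYC E-box CACGTG and the SP1 box GGGCGG. It is a description made with the differences between the groups known. All 9 members matched, with 14 starts, and no match of one motif overlapped a match of another. The 250 bases before 1 start are printed for 6 members, with E2F and NF-Y matches in capitals. They are 5 reductase, thymidylate and salvage genes that were higher and the 1 gene that was lower, picked with these differences known. For DUT and TK1 a start with matches is printed, and their other listed starts held no E2F or NF-Y match. No motif is read against a direction.
TYMS, chr18:657403-657652, plus strand: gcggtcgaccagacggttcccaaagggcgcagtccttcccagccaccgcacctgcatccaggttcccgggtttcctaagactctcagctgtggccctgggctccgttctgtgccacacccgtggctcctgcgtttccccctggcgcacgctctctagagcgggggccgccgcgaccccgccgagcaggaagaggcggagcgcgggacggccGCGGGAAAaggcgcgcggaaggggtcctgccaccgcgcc
DUT, chr15:48331947-48332196, plus strand: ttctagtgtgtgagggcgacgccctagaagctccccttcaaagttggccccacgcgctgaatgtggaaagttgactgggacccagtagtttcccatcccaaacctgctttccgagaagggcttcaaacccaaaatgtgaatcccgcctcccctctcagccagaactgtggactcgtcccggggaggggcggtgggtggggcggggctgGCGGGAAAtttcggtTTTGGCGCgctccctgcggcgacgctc
RRM1, chr11:4094435-4094684, plus strand: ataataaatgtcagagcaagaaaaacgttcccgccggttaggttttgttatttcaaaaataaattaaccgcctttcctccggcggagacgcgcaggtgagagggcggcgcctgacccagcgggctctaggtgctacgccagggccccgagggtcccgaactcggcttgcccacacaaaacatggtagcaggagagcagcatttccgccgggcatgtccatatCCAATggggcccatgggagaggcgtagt
RRM2, chr2:10122489-10122738, plus strand: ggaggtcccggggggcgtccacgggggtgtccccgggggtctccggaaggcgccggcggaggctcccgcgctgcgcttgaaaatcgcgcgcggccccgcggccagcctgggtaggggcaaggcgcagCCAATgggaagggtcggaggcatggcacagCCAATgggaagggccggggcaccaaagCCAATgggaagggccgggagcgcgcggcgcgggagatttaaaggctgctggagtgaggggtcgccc
TK1, chr17:78187053-78187302, minus strand: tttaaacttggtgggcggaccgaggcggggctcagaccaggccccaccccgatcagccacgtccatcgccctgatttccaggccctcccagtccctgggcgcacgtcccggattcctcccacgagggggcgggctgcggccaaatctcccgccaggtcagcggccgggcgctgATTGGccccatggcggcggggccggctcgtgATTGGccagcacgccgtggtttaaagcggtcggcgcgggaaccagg
SAMHD1, chr20:36951709-36951958, minus strand: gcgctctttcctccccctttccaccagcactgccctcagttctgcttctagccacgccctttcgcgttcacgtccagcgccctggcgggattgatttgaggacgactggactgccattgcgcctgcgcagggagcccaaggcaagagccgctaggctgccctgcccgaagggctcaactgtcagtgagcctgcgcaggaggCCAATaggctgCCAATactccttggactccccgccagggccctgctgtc

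The letters of an E2F motif were found in 3 of the 9 members and those of NF-Y in the other 6, and 0 members held both. TYMS has TTTCCCGC on the opposite strand with its first base at -39 from the start. DUT has TTTCCCGC at -42 on the opposite strand and TTTGGCGC at -27, both at the most downstream of its 4 listed starts. The only E2F match of DCK lies after its start, at 22. RRM2 carries CCAAT at -123, -93 and -66 before the printed start, and RRM1 carries it at -28. TK1 carries it on the opposite strand at -77 and -46 before the second of its listed starts. DTYMK carries it at -92 and -24, and CAD carries it on the opposite strand at -250, the edge of the window. SAMHD1 has CCAAT at -49 and -38. Counted per gene over all its listed starts, as for the members, 6.55% of 10751 tested genes with a window held an E2F motif, 42.9% NF-Y, 12.2% the E-box and 76% the SP1 box, and over all 35116 single windows the shares were 3.31%, 34.6%, 7.26% and 45%. The E-box was found in 1 member (DCK) and the SP1 box in 7, all except TYMS and SAMHD1. These are matches of exact letters within the windows, and no binding was measured. Sites with other letters or outside the windows were not searched for, so a member without a match may still hold such a site.

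Library totals ran from 13596286 counts (siCCNL2 replicate 2) to 18095529 (siCCNL2 replicate 1), and 15346 genes passed the filter on low counts, all 9 members among them. CCNL2 itself stood at 261, 267.5 and 246 CPM (counts per 1000000, scaled by the TMM method of edgeR) in siNC and at 203, 182 and 186 CPM in siCCNL2, so the groups did not overlap (log2 fold change -0.44, SE 0.044). Of 10 epithelial and ovarian markers 8 were tested, of which 5 were called lower in siCCNL2: KRT7 averaged 748 and 498 CPM in siNC and siCCNL2, KRT8 998 and 847, KRT18 302 and 259, PAX8 131 and 116, and WT1 8.64 and 6.33. VIM (1475 and 1495 CPM), KRT19 (3.53 and 2.9) and EPCAM (1.84 and 2.72) were not called, and CDH1 and MUC16 averaged under 1 CPM. The part of these differences in the members' values was not tested. All 5 immune and blood markers and 4 of 5 fibroblast markers averaged under 1 CPM, DCN and CD68 had 0 counts in every library, and the exception COL1A1 stood at 11.4 and 7.33 CPM. Of 4 endothelial markers, CDH5 stood at 114 and 47.2 CPM, while PECAM1 reached 2.38 CPM at most as a group mean and VWF and KDR averaged under 1.

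In siNC cells the 9 transcripts spanned about an order of magnitude in level. Levels of different genes were compared only on the authors' TPM-like score, which divides by gene length. TK1 was highest at 312 ± 11.5 (SD, n = 3), followed by RRM2 at 229 ± 3.28, DTYMK at 228 ± 12.4 and RRM1 at 189 ± 6.19. CAD (58.6 ± 1.12) and DUT (56.9 ± 4.71) came next, then DCK at 36.2 ± 1.14, SAMHD1 at 32.1 ± 0.68 and TYMS at 29.8 ± 2.45. The libraries of RRM2 and DTYMK, of CAD and DUT, and of SAMHD1 and TYMS overlapped, so these 3 pairs of neighbours did not differ beyond their spread, and the other 5 steps in the order had no overlap. On this scale the thymidine salvage kinase was the highest transcript of the 9 and thymidylate synthase had the lowest mean. TK1 exceeded 97% and TYMS 64.4% of tested genes in mean score. The level and rank of TYMS also depend on how reads in exon bases shared with ENOSF1 (below) were counted, which is not known.

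**Figure D1:**
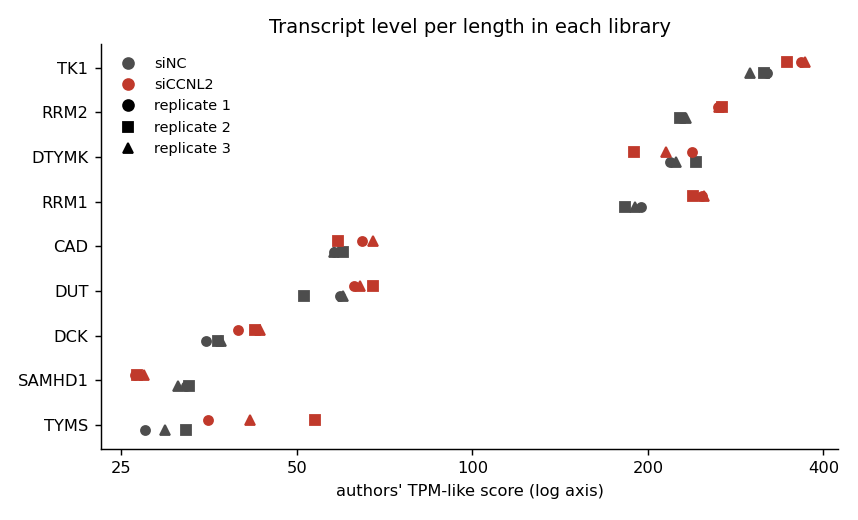
Authors' TPM-like score (log axis) of the 9 transcripts in each of 6 libraries, grey for siNC and red for siCCNL2, with the marker shape giving the replicate number; genes are ordered by the siNC mean. TK1 lies highest (312 in siNC) and TYMS lowest (29.8), and the siCCNL2 points lie to the right of the siNC points for 6 of the 9 genes and to the left for SAMHD1.

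With CCNL2 siRNA, 7 of the 9 transcripts were higher, SAMHD1 was lower and DTYMK did not pass the threshold. The threshold was 0.05 for the adjusted p of the quasi-likelihood test in edgeR, taken over all 15346 genes, and it called 17.2% of tested genes higher and 16.5% lower. The groups did not overlap in CPM for the same 7 higher and 1 lower members, against 22.1% higher and 21.8% lower (43.9% in either direction) of all tested genes. The median log2 fold change of the 9 was 0.22, against 0 over all tested genes, and the members ran from -0.25 to 0.55. Since the members were chosen with this comparison known, nothing is read from these counts. TYMS exceeded 87.2% of tested genes in absolute log2 fold change and RRM1 77%, the other called members except CAD exceeded between 50.6% and 60.4%, CAD exceeded 36.6% and DTYMK 22.2%.

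**Figure D2:**
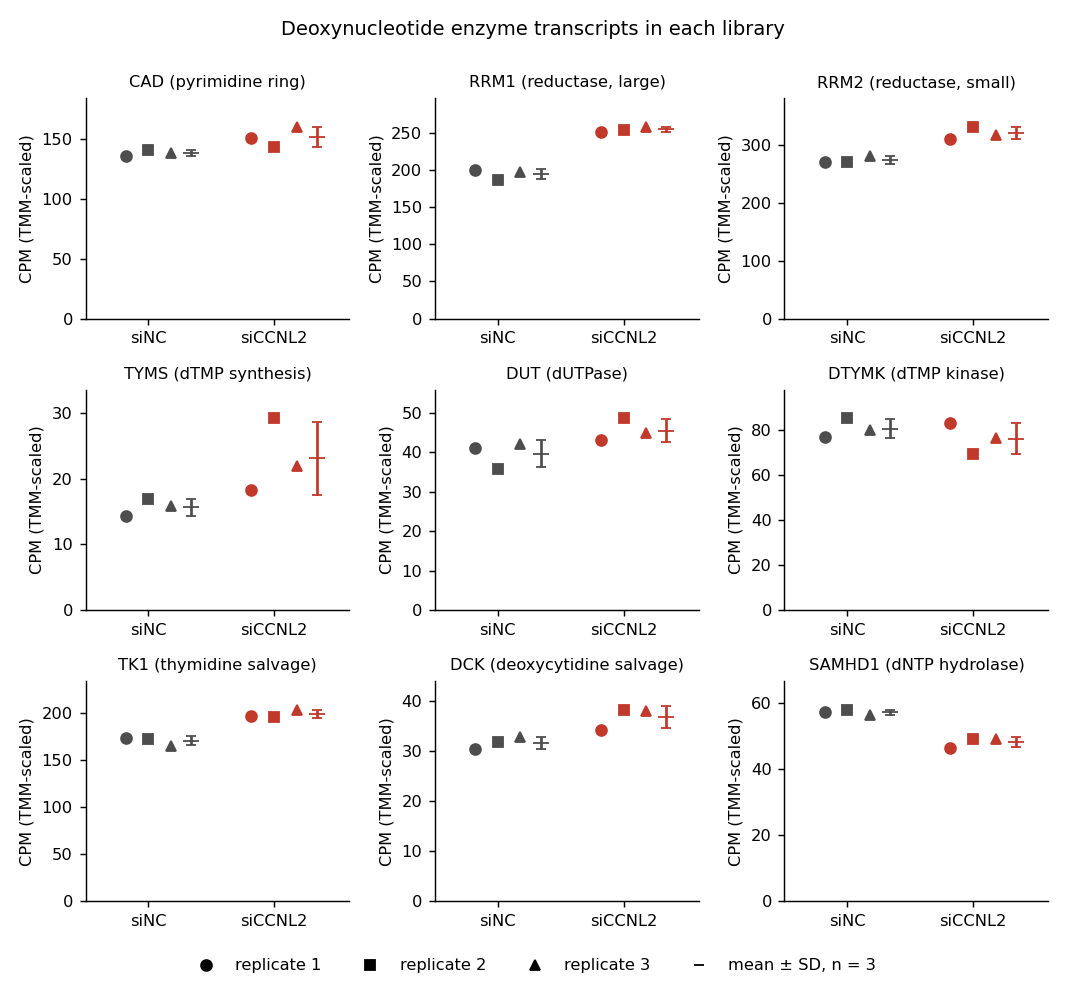
TMM-scaled CPM of each of the 9 transcripts in 3 siNC and 3 siCCNL2 libraries, 1 point per library with the replicate number as its shape, and mean ± SD (n = 3) beside the points; every axis starts at 0. The siCCNL2 points lie above the siNC points in 7 panels and below them for SAMHD1, DTYMK overlaps, and TYMS has the widest siCCNL2 spread (18.2 to 29.2 CPM).

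**Figure D3:**
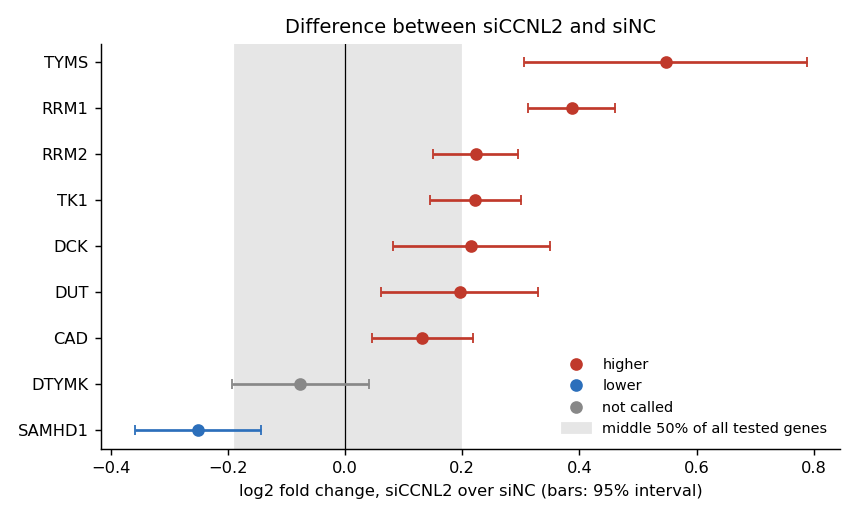
Log2 fold change of siCCNL2 over siNC for the 9 transcripts with bars of its 95% interval (normal approximation from the SE), red where called higher, blue where called lower and grey where not called; the grey band holds the middle 50% of all tested genes (-0.19 to 0.20). TYMS and RRM1 lie farthest to the right of the band, DTYMK and CAD lie within it, and DUT (0.20) lies at its upper edge.

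Both subunits of ribonucleotide reductase, the enzyme that supplies all 4 deoxyribonucleotides, were higher. RRM1 (chromosome 11, 4094707 to 4138932) stood at 199, 187 and 198 CPM in siNC and at 252, 254 and 258 CPM in siCCNL2. The siCCNL2 libraries lay close together, 52.3 CPM above the highest siNC library, and the log2 fold change was 0.39 (SE 0.038), a rise of 30.7%. RRM2 (chromosome 2, 10120698 to 10211725) stood at 270.2, 269.7 and 281 CPM in siNC and at 310, 330 and 317 CPM in siCCNL2. Its siCCNL2 libraries again lay above every siNC library, with a log2 fold change of 0.22 (SE 0.037), or 16.7%. RRM2 thus remained more abundant per length than RRM1. The ratio of RRM2 to RRM1 in score was 1.17, 1.24 and 1.22 in siNC and 1.06, 1.12 and 1.06 in siCCNL2, without overlap. RRM2B, which encodes the alternative small subunit and was chosen after its values were seen, averaged 380 and 398 CPM and was not called (log2 fold change 0.07).

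In the thymidylate branch TYMS and DUT were higher and DTYMK was not called. TYMS (chromosome 18, 657653 to 673578), which makes dTMP and is the target of 5-fluorouracil, stood at 14.3, 16.9 and 15.8 CPM in siNC and at 18.2, 29.2 and 21.9 CPM in siCCNL2. All 3 siCCNL2 libraries were higher than the siNC libraries, replicate 1 by as little as 1.34 CPM and replicate 2 by far the most. The log2 fold change of 0.55 (SE 0.123) was the largest of the 9 over all 6 libraries, a rise of 46.1%. It was 0.70 without siCCNL2 replicate 1 and 0.36 without siCCNL2 replicate 2, where RRM1 (0.39) was larger. DUT (chromosome 15, 48331011 to 48343373), the dUTPase whose nuclear and mitochondrial forms a gene-level count cannot separate, stood at 41.1, 35.7 and 42.2 CPM in siNC and at 43.1, 48.6 and 44.9 CPM in siCCNL2. The groups were 0.946 CPM apart at their nearest libraries. Its log2 fold change of 0.20 (SE 0.069) was 0.13 and not called without siNC replicate 2. DTYMK (chromosome 2, 241675747 to 241686944), the kinase that follows both TYMS and TK1, stood at 76.8, 85.2 and 79.8 CPM in siNC and at 83.2, 69.2 and 76.3 CPM in siCCNL2. Its groups overlapped, with siCCNL2 replicate 1 among the highest and replicate 2 the lowest of the 6. The log2 fold change was -0.08, with a 95% interval from -0.19 to 0.04, and it ran from -0.01 without siCCNL2 replicate 2 to -0.14 without siCCNL2 replicate 1, not called in either case.

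Both salvage kinases were higher. TK1 (chromosome 17, 78174091 to 78187233), the cytosolic thymidine kinase of dividing cells, stood at 174, 172 and 165 CPM in siNC and at 197, 195 and 204 CPM in siCCNL2. The groups were 21.5 CPM apart, with a log2 fold change of 0.22 (SE 0.040), or 16.7%. DCK (chromosome 4, 70992538 to 71030914), which phosphorylates deoxycytidine and activates cytarabine and gemcitabine, stood at 30.3, 31.8 and 32.7 CPM in siNC and at 34.2, 38.2 and 37.9 CPM in siCCNL2. The log2 fold change was 0.22 (SE 0.068), or 16.1%, with 1.48 CPM between the nearest libraries.

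CAD (chromosome 2, 27217369 to 27243943), the 3-activity enzyme that starts pyrimidine synthesis, had the smallest of the called differences. It stood at 136, 141 and 139 CPM in siNC and at 151, 144 and 160.5 CPM in siCCNL2. The log2 fold change was 0.13 (SE 0.044), or 9.56%. On the authors' TPM-like score the groups of CAD overlapped, with siCCNL2 replicate 2 at 58.9 and siNC replicate 2 at 59.9. The calls of CAD, DUT and DCK each ended when siCCNL2 replicate 3 was left out, as they did at a threshold of 0.01, leaving RRM1, RRM2, TYMS and TK1 called higher. CAD and DCK were also lost without siNC replicate 1, and DUT and DCK without siCCNL2 replicate 2.

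SAMHD1 (chromosome 20, 36890229 to 36951893), the dNTP hydrolase that also restricts retroviruses in myeloid cells, was the only member called lower. It stood at 57.4, 58.0 and 56.5 CPM in siNC and at 46.4, 49.1 and 49.0 CPM in siCCNL2. The siCCNL2 libraries lay at least 7.41 CPM below the siNC libraries, and SAMHD1 fell by 0.25 on the log2 scale (SE 0.055), a fold of 0.84. Set against the reductase in score, RRM1 was 6.03, 5.6 and 6.07 times SAMHD1 in siNC and 9.41, 8.99 and 9.12 times SAMHD1 in siCCNL2. The summed score of the 9 transcripts was 1172, 1181 and 1161 in siNC and 1344, 1292 and 1344 in siCCNL2, without overlap.

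The members differed in how evenly their replicates lay. The coefficient of variation (SD over mean) within siCCNL2 was 24.1% for TYMS against 5.3% from counting error alone, and 9.16% for DTYMK against 2.87%. It was 1.23% for RRM1, 2.14% for TK1 and 3.18% for SAMHD1, near or below the counting error of 1.58%, 1.78% and 3.63%. In siNC the widest were DUT (8.73%) and TYMS (8.26%, counting error 6.28%). TYMS is also the member with the fewest reads, 760 over the 3 siNC libraries and 1067 over the 3 siCCNL2 libraries, and RRM2 the one with the most, 13319 and 15076. Likeness between profiles was measured as the root mean square (RMS) difference of log2 CPM over the 6 libraries after centring on the siNC mean. By that measure RRM2 and DCK were each other's nearest member (0.040), RRM2 was also nearest to TK1 (0.057), DUT (0.070) and RRM1 (0.122), TK1 was nearest to CAD (0.077), and TYMS stood farthest from any other, 0.240 from RRM1. Outside the list, the 5 nearest to TYMS among 10630 candidates averaging at least 5 CPM were FAM72B (0.095), COPG2 (0.097), BCL7C (0.10), GABPB1-IT1 (0.10) and TCEA3 (0.106). All were highest in siCCNL2 replicate 2 like TYMS, which follows largely from their choice by likeness over these same libraries.

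Some members share their locus with other genes, which matters because the sources used here do not say whether counting used strand. TYMS overlaps ENOSF1 on the opposite strand over 3261 bases in the deposited coordinates, and 967 exon bases, 39.1% of those of TYMS, are shared in GENCODE release 29. ENOSF1 stood at 47.7, 50.5 and 47.1 CPM in siNC and at 52.9, 43.8 and 49.4 CPM in siCCNL2 and was not called (log2 fold change 0.01). Within siCCNL2, ENOSF1 was lowest in replicate 2, where TYMS was highest, and highest in replicate 1, where TYMS was lowest. Within siNC, both genes were highest in replicate 2 (TYMS 16.9 and ENOSF1 50.5 CPM). DTYMK had the same order in siCCNL2 as ENOSF1 (83.2, 69.2 and 76.3 CPM). The part of the shared bases in the TYMS level and in its difference between groups was not tested. DCK shares 199 exon bases, 6.17% of its own, with MOB1B on the same strand, which was not called (log2 fold change -0.06). DUT shares 533 exon bases, 14.5%, with DUT-AS1, which had 68 counts in all 6 libraries together. The 8 DUT pseudogenes named as such had 147 counts in all, the 3 of RRM2 had 9 and the 2 of TYMS had 0, so few reads were assigned to these copies. The deposited span of RRM2 is 91028 bases, while GENCODE release 29 ends the gene at 10131419, and the 2 small RNA genes inside the longer span had 25 (SNORA2) and 18 (MIR4261) counts.

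**Figure D4:**
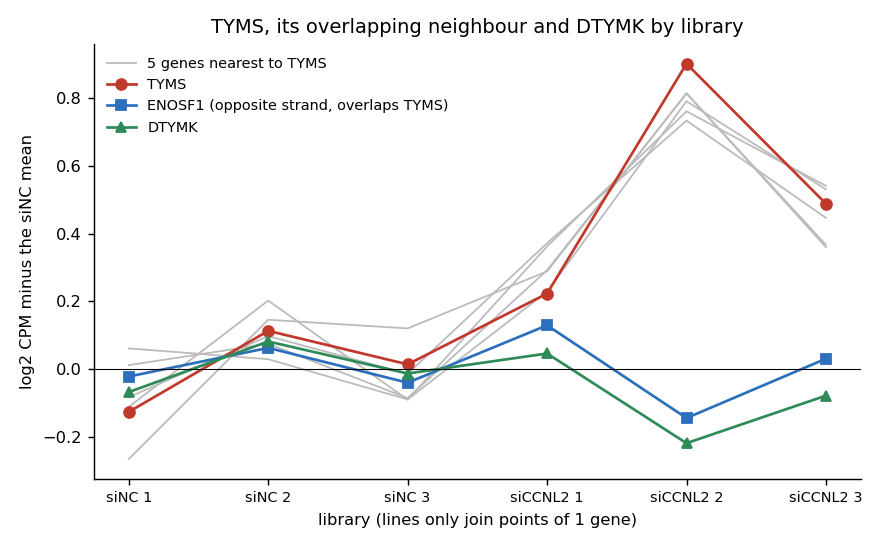
Log2 CPM minus the siNC mean in each of the 6 libraries for TYMS (red), ENOSF1 (blue), DTYMK (green) and the 5 genes nearest to TYMS (grey); lines only join the points of 1 gene. TYMS and the grey genes, chosen for likeness to it in these libraries, peak in siCCNL2 replicate 2. ENOSF1 (43.8 CPM) and DTYMK (69.2 CPM) have their lowest values there.

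Other genes of nucleotide metabolism were called in both directions. Of 10 other pyrimidine synthesis genes, 3 rose and 1 fell, with a median log2 fold change of -0.03. UMPS, which completes UMP, rose from 59.7 ± 3.19 to 74.6 ± 2.99 CPM (0.32, edgeR quasi-likelihood test, adjusted p = 5.87e-05). DHODH, the mitochondrial step before UMPS, fell by 0.29. The DHODH call ended under 7 of the 17 alternatives. Among these were the DESeq2 Wald test, both fits to log2 scores and the threshold of 0.01. The others left out siNC replicate 2, siNC replicate 3 or siCCNL2 replicate 1. Of 17 purine synthesis and salvage genes, 2 rose and 3 fell (median 0.02). PPAT, which commits the purine route, fell from 83 ± 3.56 to 55.1 ± 2.5 CPM (log2 fold change -0.59, adjusted p = 5.66e-09 by edgeR), and the adenine salvage gene APRT rose by 0.44. The second purine rise was HPRT1, named after its values were seen, at 0.12, and the count of purine rises was 1 under 13 of the 17 alternatives. Of 17 other dNTP supply, salvage and mitochondrial genes, 1 rose, the nucleoside transporter gene SLC29A1 (0.17), and 5 fell, led by the adenosine deaminase gene ADA (-0.72). The number that rose was 4 without siCCNL2 replicate 1, and 2 without siNC replicate 3 or siCCNL2 replicate 3. The mitochondrial thymidine kinase gene TK2, picked after its values were seen, was not called (-0.22). In the authors' deposited annotation 50 other genes belong to pyrimidine metabolism, 38 of them tested, and 6 were called higher and 6 lower (15.8% each, median -0.02), close to the 17.2% and 16.5% of all tested genes. This annotated list was added after the data had been seen.

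Enzymes that clean or break down nucleotides rose in 2 and fell in 3 of 13 genes (median -0.08). DPYD, which degrades uracil, thymine and 5-fluorouracil, rose from 23.9 ± 1.32 to 35.8 ± 2.92 CPM (log2 fold change 0.58, adjusted p = 1.60e-06 by edgeR), and NUDT16 fell by 0.39. Among 7 genes of the thioredoxin and glutaredoxin systems, 1 rose and 4 fell (median -0.17). Part of these systems hands electrons to ribonucleotide reductase, but TXN2 (-0.17) and TXNRD2 (-0.41), among those that fell, encode mitochondrial proteins. The thioredoxin gene TXN was not called (-0.03). TXNRD1, thioredoxin reductase, fell by 0.51 and the glutaredoxin gene GLRX rose by 0.35. The summed level of the 7 fell from between 2010 and 2090 CPM in siNC to between 1510 and 1580 CPM in siCCNL2, most of it TXNRD1.

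Regulators of S-phase entry moved both ways. Of 34 tested genes of the E2F and RB network and the cyclins around it, 14 rose and 6 fell (41.2% and 17.6%, median 0.06). CCND1, which encodes cyclin D1 and acts on RB ahead of the E2F factors, fell by 1.08 from 1760 ± 28.3 to 835 ± 6.32 CPM. The E2F genes, described after their values were seen, were called in both directions: E2F1 and E2F8 rose by 0.38 and 0.28, E2F5 and E2F7 fell by 0.63 and 0.12, and E2F2, E2F3, E2F4 and E2F6 were not called (-0.04 to 0.03). Of their partners, TFDP1 rose by 0.43 and TFDP2 was not called (0.11). The CDK inhibitor gene CDKN1A, also picked afterwards, fell by 0.54. Of 37 other S-phase marker genes, 15 rose and 0 fell by edgeR's quasi-likelihood test (median 0.08), led by CDCA7 (0.47). Of the 6 MCM helicase genes on that list, likewise chosen afterwards, MCM3 rose by 0.22 and the other 5 were not called (0.01 to 0.10). Of 34 G2 and M phase markers, 17 rose and 0 fell (median 0.11), led by BIRC5, survivin (0.69), while CDK1, also chosen afterwards, was not called (-0.07). At an unadjusted p under 0.05 in edgeR 0 S-phase genes and 1 G2 and M gene (CKS2) were lower, and the DESeq2 Wald test called 0 lower in both lists. Without siCCNL2 replicate 2, edgeR called 1 G2 and M gene lower. The summed level of the S-phase list ran from 4210 to 4250 CPM in siNC and from 4500 to 4580 CPM in siCCNL2, and that of the G2 and M list from 6140 to 6520 CPM and from 6940 to 7000 CPM. The summed levels of these 2 lists were higher in the same libraries as the 7 higher members, although 22 of the 37 and 17 of the 34 genes were not called. The part of this in the members' difference was not tested, and in these bulk libraries the share of cells in S phase and the amount of transcript per cell cannot be told apart.

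**Figure D5:**
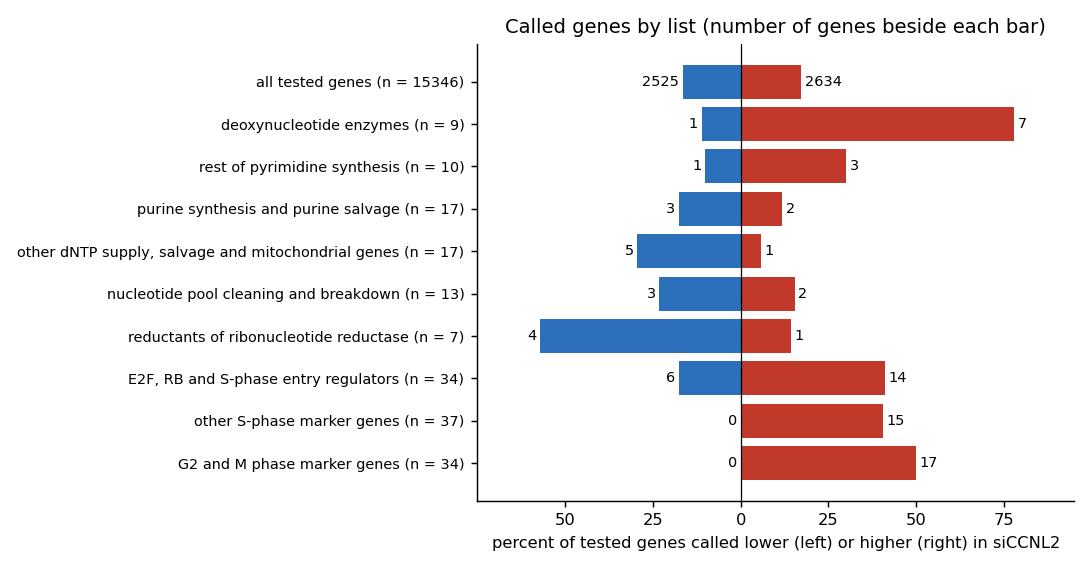
Percent of tested genes called lower (blue, to the left) or higher (red, to the right) in siCCNL2 for all tested genes, the 9 deoxynucleotide enzymes and 8 lists around them, with the number of called genes beside each bar. All tested genes split 17.2% higher and 16.5% lower, and the S-phase and G2 and M lists have 15 and 17 genes higher and 0 lower. The reductant list, which includes genes of mitochondrial proteins, has 4 of 7 lower.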

How the data were processed

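The authors deposited raw read counts per gene for the 6 libraries, as whole numbers, together with a TPM-like score that scales these counts by gene length and library size. Per the submitters' processing notes, fastp 0.23.0, HISAT2, HTSeq 2.0.1 and the build GRCh38 were used. The sources used here give no library kit, strand setting or annotation release. The tables have 62710 rows for 60835 names, and each name was used once. The score sums to 1000000 over distinct names, and dividing counts by scores returned, after each library's own scale was removed, a fixed factor per gene (largest relative deviation 1.7e-09 among 12464 genes), so the tables are not separate evidence.

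Genes were filtered with filterByExpr and tested with edgeR 4.0.16 in R 4.3.3 (TMM, glmQLFit, glmQLFTest, Benjamini-Hochberg over 15346 genes, adjusted p under 0.05) without covariates. The standard error is the log2 fold change over the square root of F, and fold changes are siCCNL2 over siNC. Chi-square per degree of freedom between replicate libraries was 2.19 to 3.61, above sampling noise, and each library was kept as 1 sample. With 3 against 3 libraries an exact permutation test cannot give a p below 0.1, so none was used. Counting error is that of a Poisson count and covers counting only.

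The members and lists were chosen with earlier results of these data known. Named genes were all members, CCNL2, the largest called change per direction in each list at 5 CPM or more, the 5 genes nearest to the member with the widest siCCNL2 spread, and overlapping genes or named pseudogenes. Others are named as chosen later, and a gene that this rule names is not reported here. Alternatives comprised DESeq2 1.42.0 factors and Wald test, upper-quartile or no factors, no filter, 1 CPM in 3 libraries, limma 3.58.1 (voom, or trend fits to log2 scores with 1 or 0.1 added), a threshold of 0.01, a replicate block, and leaving out each library. Gene positions follow the deposited table (GRCh38), promoters are from RefSeq on GRCh38.p14 and shared exon bases from GENCODE release 29 on GRCh38, matched by Ensembl identifier.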

Additional observations from a re-analysis of the deposited data

How the results depend on the processing

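The count of enzymes called higher was 7 in the full set, 4 at a threshold of 0.01 and between 4 (without siCCNL2 replicate 3) and 7 when single libraries were left out. SAMHD1 was the 1 enzyme called lower under all 17 alternatives. RRM1 (log2 fold change 0.36 to 0.41), RRM2 (0.20 to 0.25), TK1 (0.20 to 0.24) and TYMS (0.36 to 0.70) kept their calls under all 17, while the calls of CAD, DUT and DCK ended under 5, 7 and 4 of them, with the direction kept. On log2 of the score plus 1 the adjusted p of limma was 0.149 for CAD and 0.0596 for DUT, and with the DESeq2 Wald test it was 0.0639 for DUT. No alternative called DTYMK (smallest adjusted p 0.0801 by edgeR, without siCCNL2 replicate 1). The number of neighbours that overlapped in the order of siNC levels was 3, and between 0 (without siNC replicate 2) and 3 when single siNC libraries were left out; without replicate 1 or 3 the order of RRM2 and DTYMK turned, and without replicate 2 that of CAD and DUT. The S-phase and regulator lists each had 9 genes higher at a threshold of 0.01, and the G2 and M list had 11 with either log2 score fit. Genes called over the whole table numbered 3612 to 5234, and the scalings moved the median log2 fold change of all genes by at most 0.02.

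Libraries of the 2 groups share the numbers 1 to 3, which the labels do not tie to a batch or day. Deviations from the group means correlated at 0.043, 0.023 and 0.026 between libraries of the same number, each of the 6 best with its own number, a hint from the data and not the design. With the replicate number as a block, 5234 genes were called against 5159, and 7 enzymes were higher and 1 lower as before (TYMS 0.54, CCNL2 -0.44). TYMS had the fewest reads of the 9, and its spread within siCCNL2 was 24.1%, with a counting error of 5.3%. The cause of that spread was not tested.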
